A study of Mus musculus with 4 samples.

Results

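Mif-rich and Mif-poor spots were compared within Visium sections of mouse liver. Of 8246 spots with at least 500 UMIs (unique molecular identifiers, counts of captured transcripts) in 4 sections, 2741 were Mif-rich and 2741 were Mif-poor. Spots of a section were divided into 5 equal bins of total UMIs and ranked within each bin by the share of their UMIs that came from Mif, with ties broken at random. The top of 3 equal classes was called Mif-rich and the bottom class Mif-poor, so the spots were chosen by the Mif counts themselves. Sections MASH-1, MASH-2, MAFL-1 and MAFL-2 held 820, 620, 676 and 625 spots of each class.

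The 2 MASH sections came from livers of mice fed a diet labelled WD for 16 weeks, and the 2 MAFL sections from livers of mice fed it for 8 weeks. Livers were frozen fresh in embedding medium, and a Visium spot captures RNA from several neighbouring cells, so no spot was assigned a cell type. The model and the weeks of diet change together in the labels and cannot be told apart. The labels leave it unsaid whether both sections of a group are from 1 animal or several. With the section as a block, p-values cover how the class difference varies between sections, a spread that may be technical. The kept spots held 63808230, 44581221, 32249289 and 38126800 UMIs in MASH-1, MASH-2, MAFL-1 and MAFL-2. Of 3242 distinct barcodes, 2444 occurred in more than 1 section, because capture areas carry the same printed barcode set. The hepatocyte product albumin (Alb) stood between 48289.5 and 55716 CPM (counts in 1e6 UMIs) in the 8 class sums. For this and other tested genes, CPM use UMI totals scaled by edgeR's TMM factors.

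MIF is a small cytokine that many cell types store and release, hepatocytes and macrophages among them. It signals through CD74, a chaperone of MHC class II molecules, with CD44 as a co-receptor, and through the chemokine receptors CXCR2, CXCR4 and ACKR3, while its paralog D-dopachrome tautomerase (DDT) binds CD74 as well. In fatty liver disease it has been studied as a signal between lipid-laden hepatocytes and the macrophages that gather around them.

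The Mif gene lies on chromosome 10 of GRCm38.p6 from position 75859353 to 75860277, and Ddt lies on the same chromosome from 75771233 to 75773374. The promoter window of Mif in RefSeq, chr10:75860228-75860527 on the minus strand, is shown because expression of MIF is known to respond to cyclic AMP and to low oxygen. Capitals mark the cyclic AMP response element TGACGTCA, which is its own reverse complement, and the hypoxia response core ACGTG, found here on the opposite strand as CACGT.
Mif promoter: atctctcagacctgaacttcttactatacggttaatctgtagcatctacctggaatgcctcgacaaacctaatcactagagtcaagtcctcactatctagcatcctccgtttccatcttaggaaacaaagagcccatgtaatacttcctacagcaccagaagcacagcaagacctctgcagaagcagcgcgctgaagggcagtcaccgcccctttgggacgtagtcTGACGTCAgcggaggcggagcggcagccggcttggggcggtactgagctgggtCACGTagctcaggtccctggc
Searched on both strands, TGACGTCA occurred in 1.79% and ACGTG in 19.6% of 32851 RefSeq promoter windows of the same length. The motifs do not overlap in the Mif window. A match describes the letters and was not tested as a binding site.

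Mif itself separated the classes because it chose them. Mif stood at 377, 399, 356 and 358 CPM in Mif-rich spots of MASH-1, MASH-2, MAFL-1 and MAFL-2, against 153, 154, 96.3 and 119.9 CPM in Mif-poor spots. The median Mif-rich spot held 9, 8, 5 and 7 Mif UMIs in these sections, and the median Mif-poor spot held 4, 3, 1 and 2. No Mif-rich spot lacked Mif, while 34, 41, 127 and 57 Mif-poor spots did. At the borders of the fullest bin of MASH-2, the lowest Mif-rich spot had 290.2 Mif CPM and the highest spot just outside had 289.6. The highest Mif-poor spot of that bin had 219 and the lowest spot just outside had 220.3.

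Depth was balanced by construction. The median spot held 25266.5, 19909.5, 15217 and 19552 UMIs in the Mif-rich class of MASH-1, MASH-2, MAFL-1 and MAFL-2, against 25260, 20381.5, 15455 and 19711 UMIs in the Mif-poor class. Haemoglobin transcripts took 0.382, 0.105, 0.267 and 0.123% of UMIs in Mif-rich spots, against 0.481, 0.159, 0.306 and 0.213% in Mif-poor spots, so this share was lower in the Mif-rich class of all 4 sections. Blood cells and hepatocytes cannot be told apart within a spot, and fewer cells of a type cannot be told apart from less RNA per cell.

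Little of this Mif difference remained in UMIs that had not ranked the spots. Each spot's UMIs were divided at random into 2 equal parts, spots were ranked on 1 part, and Mif was measured in the other. In the ranking UMIs the log2 ratio of Mif-rich over Mif-poor spots was 1.81, 2.01, 2.93 and 2.39 in MASH-1, MASH-2, MAFL-1 and MAFL-2. In the UMIs left out of the ranking, Mif stood at 274, 282, 224 and 237 CPM in Mif-rich spots, against 249.6, 259, 219 and 228 CPM in Mif-poor spots. The linear ratio there was 1.10, 1.09, 1.02 and 1.04, higher in the Mif-rich class in 4 of 4 sections but small. A split with another random seed gave 1.06, 1.14, 1.07 and 1.11.

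**Figure D1:**
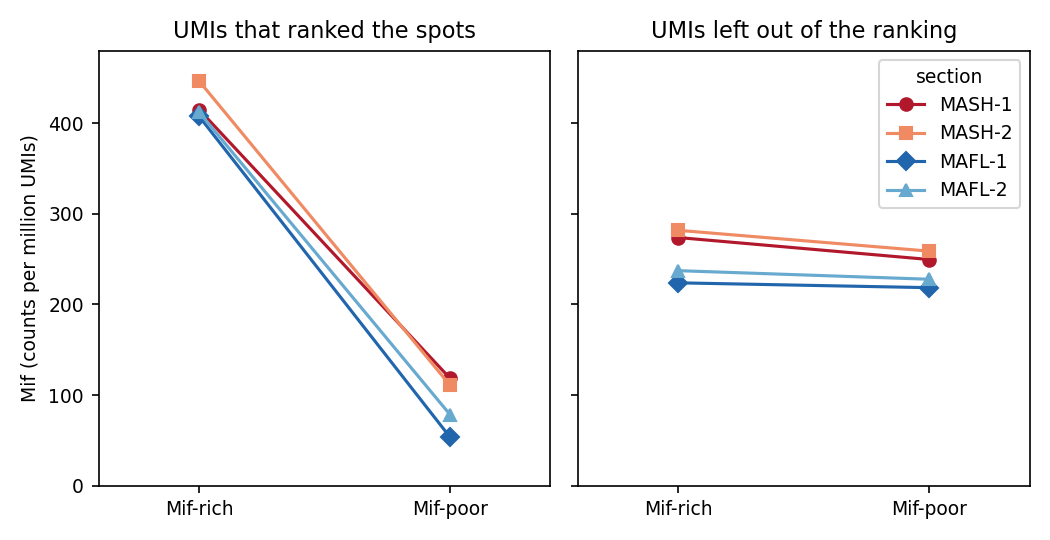
Mif level in CPM in Mif-rich and Mif-poor spots, in the UMIs that ranked the spots (left panel) and in those left out of the ranking (right panel), 1 line for each section. The lines fall steeply on the left, to between 53.5 and 118 CPM in Mif-poor spots, and are nearly level on the right.

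The spread of Mif over spots was close to that of counting alone. With every spot thinned at random to 5000 UMIs, the variance of Mif over its mean was 0.993, 1.02, 1.01 and 0.996 in MASH-1, MASH-2, MAFL-1 and MAFL-2, where counting error alone gives 1. Among the 651, 638, 706 and 695 genes within 2-fold of its mean, the median ratio was 1.03, 1.04, 1.02 and 1.01. A lower ratio than that of Mif was held by 16.6, 31.3, 40.1 and 28.6% of those genes. Mif lay below the median of these genes in each section.

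Cd74, Thrsp and Cyp2e1 kept more of their ranking when treated the same way. Cd74 ranked on itself was 2.13, 2.57, 1.85 and 1.74 times as high in top as in bottom spots of MASH-1, MASH-2, MAFL-1 and MAFL-2 in the left-out UMIs. Thrsp, a nuclear regulator of lipogenesis, gave 1.38, 1.41, 1.08 and 1.19, and Ddt gave 1.14, 1.17, 1.10 and 1.03. Cyp2e1, the pericentral cytochrome P450 used in the zone score, gave between 3.33 and 6.02. The coefficient of variation beyond counting was 10.1 to 18.03% for Mif and 8.71 to 16.6% for Ddt, against 63.8 to 99.6% for Cd74 and 29.1 to 48.8% for Thrsp. The folds of Mif and Ddt overlapped between sections, and those of Cd74 lay above every fold of Mif. The genes differ in level, and how much of the gap that accounts for was not tested.

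**Figure D2:**
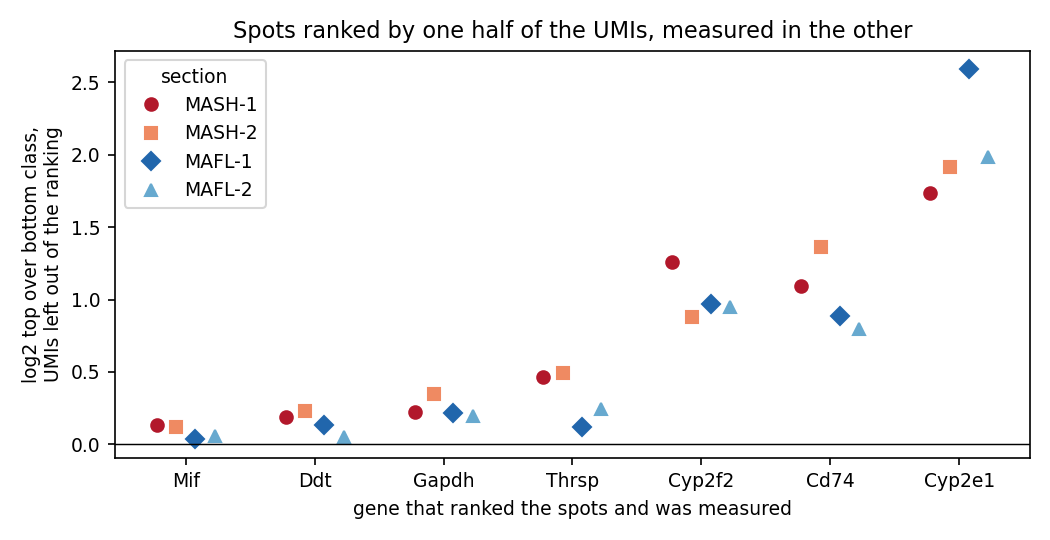
Log2 ratio of the top over the bottom class in the UMIs left out of the ranking, with spots ranked on the gene named below each set of 4 points, 1 point for each section. Mif and Ddt overlap near 0, Gapdh lies above both within each section, and Cd74 and Cyp2e1 lie far above.

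Mif differed little along the lobule axis. Zones were 3 equal classes per section of log2((Cyp2f2 + 1)/(Cyp2e1 + 1)), with the highest called periportal and the lowest pericentral. In MASH-1 Mif stood at 264, 252 and 269.6 CPM in periportal, middle and pericentral spots, and in MASH-2 at 263, 259 and 293 CPM. In MAFL-1 it stood at 217, 225 and 223 CPM, and in MAFL-2 at 227, 232 and 242 CPM. Between 29.1 and 37.7% of the spots of a zone were Mif-rich. Pericentral spots made up 33.9, 37.7, 36.4 and 35.4% of the Mif-rich class of MASH-1, MASH-2, MAFL-1 and MAFL-2. They made up 31.6, 30.5, 34.2 and 31.0% of the Mif-poor class. Periportal spots made up 35.4, 33.1, 30.9 and 31.7% of the Mif-rich class, against 32.8, 32.7, 34.0 and 36% of the Mif-poor class. The comparison over all zones was not matched for these shares.

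Against this small difference in Mif, 7 genes were higher in Mif-rich than in Mif-poor spots, and none passed lower. Counts were summed per class and section and fitted with edgeR's quasi-likelihood test with the section as a block and Mif left out. The 7 were 0.0582% of 12023 tested genes at an adjusted p of 0.05, and 780 genes had an unadjusted p under 0.05. DESeq2 called 0 on the same sums, and limma-voom called 5.

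Slpi, an inhibitor of leukocyte proteases, stood at 3.37, 17.3, 0.954 and 0.414 CPM in Mif-rich spots of MASH-1, MASH-2, MAFL-1 and MAFL-2, against 1.91, 8.40, 0.476 and 0.332 CPM in Mif-poor spots. It was higher in the Mif-rich class of 4 of 4 sections, with most of its UMIs in MASH-2 and between 4 and 10 UMIs per class sum in the MAFL sections (edgeR log2 fold change 0.97 with SE 0.13, adjusted p = 0.000223). Lgals3, the macrophage-rich lectin galectin-3, stood at 31.0, 76.4, 10.5 and 11.9 CPM in Mif-rich spots, against 27.5, 54.8, 8.67 and 11.6 CPM in Mif-poor spots. It was higher in 4 of 4 sections by amounts from 0.03 to 0.48 on the log2 scale (fitted edgeR log2 fold change 0.32 with SE 0.06, adjusted p = 0.0200). The acute phase protein orosomucoid 2 (Orm2) stood at 42.7, 126.8, 50.4 and 66.6 CPM in Mif-rich spots, against 37.3, 105.2, 47.9 and 60.3 CPM in Mif-poor spots (edgeR log2 fold change 0.19 with SE 0.04, adjusted p = 0.0289, 4 of 4 sections). Lgals3 and Orm2 met the rule for naming genes, and the other 5 were named after their values were seen because so few genes passed.

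The glutathione transferase Gsta1 stood at 8.16, 16.8, 0.191 and 0.331 CPM in Mif-rich spots, against 6.10, 8.65, 0.286 and 0.332 CPM in Mif-poor spots. Its difference came from the MASH sections, since each MAFL class sum held 2 to 4 UMIs (edgeR log2 fold change 0.70 with SE 0.12, adjusted p = 0.0150). Ubd, a ubiquitin-like modifier induced by inflammation, stood at 8.30, 35.5, 1.14 and 1.90 CPM in Mif-rich spots, against 7.48, 22.2, 1.05 and 1.66 CPM in Mif-poor spots (log2 fold change 0.50, adjusted p = 0.0225 in edgeR). Gpnmb, a glycoprotein of lipid-loaded macrophages, stood at 12.5, 49.1, 0.381 and 0.414 CPM in Mif-rich spots, against 11.1, 29.2, 0 and 0.249 CPM in Mif-poor spots (log2 fold change 0.56, adjusted p = 0.0306 in edgeR). Its MAFL sums were 0 to 5 UMIs and say little. The laminin chain Lamc3 stood at 2.89, 7.65, 3.81 and 2.81 CPM in Mif-rich spots, against 1.95, 3.92, 2.48 and 2.16 CPM in Mif-poor spots (log2 fold change 0.71, adjusted p = 0.0482 in edgeR).

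None of these calls held without MASH-2. Of the 7 genes, 6 had their largest difference between classes in MASH-2, Gpnmb being the exception through a 0 in MAFL-1. Without MASH-2, edgeR called 9 genes, and 0 of them were among the 7. There the log2 fold change was 0.80 for Slpi (adjusted p = 0.454), 0.15 for Orm2 (0.432) and 0.53 for Lamc3 (0.678), against 0.97, 0.19 and 0.71 with all sections. It was 0.16 for Lgals3 (adjusted p = 0.876 in edgeR) and 0.15 for Ubd (0.991), against 0.32 and 0.50 with all sections, while Gsta1 and Gpnmb were below the filter on low counts and were not tested. Without MASH-1 it called 7, of which 3 were shared, and without MAFL-1 or MAFL-2 it called 20 or 45, with all 7 among them. Ranking on 1 part of the UMIs and testing in the other gave 3 calls, Slpi, the macrophage elastase Mmp12 and the collagen Col3a1, of which Slpi was shared. With spots thinned to 5000 UMIs 1 gene was called and none of the 7, and the log2 fold changes of Orm2 and Gpnmb turned to -0.10 each.

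**Figure D3:**
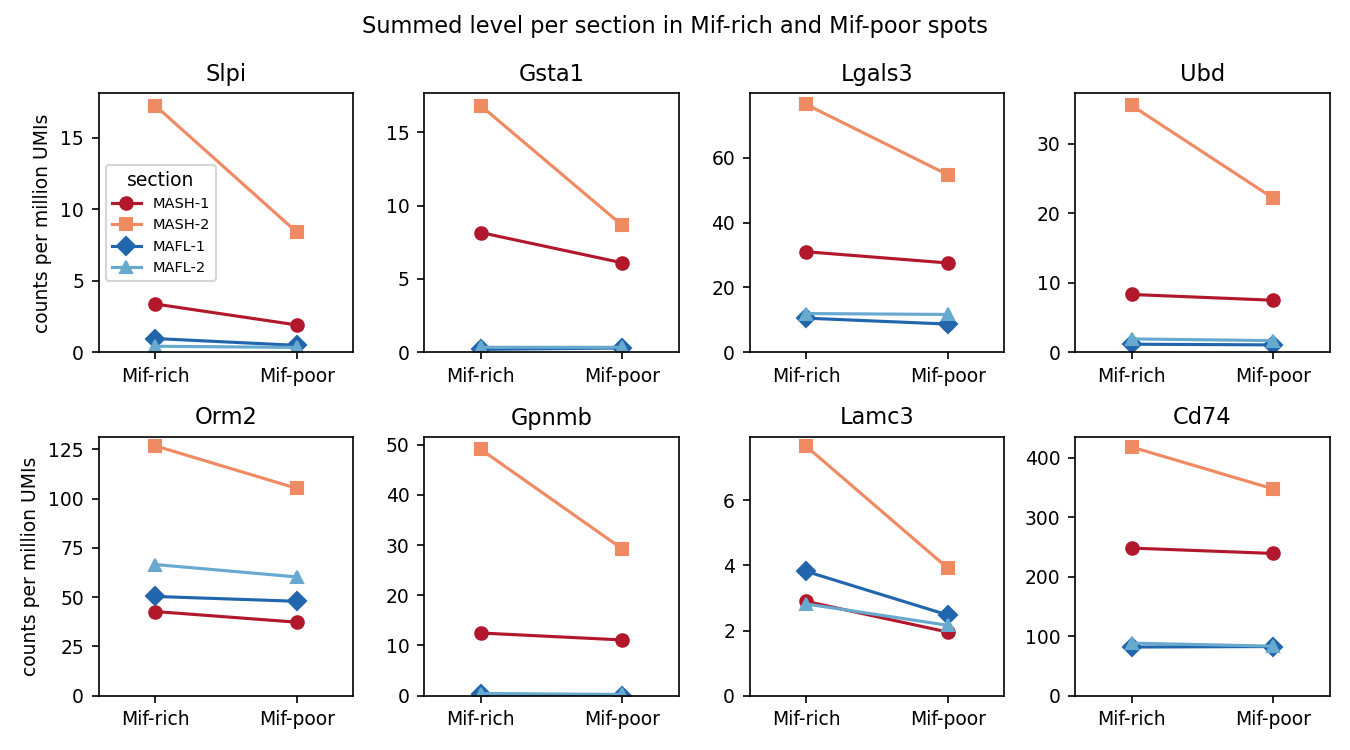
Summed level in CPM of the 7 called genes and of Cd74 in Mif-rich and Mif-poor spots, 1 line for each section, on axes that start at 0. The line of MASH-2 lies highest in every panel and is the steepest.

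The receptors and the paralog of MIF did not pass. Cd74 stood at 248, 418, 81.8 and 88.4 CPM in Mif-rich spots of MASH-1, MASH-2, MAFL-1 and MAFL-2, against 239, 348, 82.7 and 83.3 CPM in Mif-poor spots. It was higher in the Mif-rich class of 3 of 4 sections (edgeR log2 fold change 0.12 with SE 0.03, adjusted p = 0.327). Cd74 passed in 3 of 18 settings, namely with no filter on low counts, without MAFL-2 and with the top and bottom 20% of spots, and its adjusted p ranged from 0.00903 to 0.999988 over them. Without MASH-2 its log2 fold change was 0.05 (adjusted p = 0.960).

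Ddt stood at 678, 555, 448 and 543 CPM in Mif-rich spots, against 695, 580.2, 447 and 548 CPM in Mif-poor spots (edgeR log2 fold change -0.03 with SE 0.02, adjusted p = 0.884). Levels of the adhesion receptor and co-receptor Cd44 were 13.0, 18.9, 9.92 and 10.3 CPM in Mif-rich spots, against 13.5, 17.5, 10.2 and 9.89 CPM in Mif-poor spots (log2 fold change 0.03, adjusted p = 0.974 in edgeR), and its sign turned under some settings. Neither gene separated the classes in all sections. The chemokine receptor Cxcr4 was scarce, at 1.38, 3.20, 0.286 and 0.745 CPM in Mif-rich spots and 1.05, 2.02, 0.476 and 0.665 CPM in Mif-poor spots (log2 fold change 0.44, adjusted p = 0.802 in edgeR), and Cxcr2 and Ackr3 were too low to test.

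Thrsp, the hepatocyte gene of the series' title, stood at 351, 488, 30.9 and 129 CPM in Mif-rich spots, against 339, 452, 30.8 and 132 CPM in Mif-poor spots. Its classes lay close together in every section, while its level differed far more between the sections (edgeR log2 fold change 0.05 with SE 0.03, adjusted p = 0.799). No setting called it.

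Ranking the spots by the other genes gave the same picture from their side. These rankings were added after the data were seen. Mif stood at 269, 285, 224 and 233 CPM in the top class by Thrsp in MASH-1, MASH-2, MAFL-1 and MAFL-2, against 259, 256, 221 and 234 CPM in the bottom class (edgeR log2 fold change 0.04 with SE 0.03, adjusted p = 0.732). By Cd74, Mif stood at 266, 278, 226 and 239.8 CPM in top spots, against 256, 259, 222 and 226 CPM in bottom spots. As a share of all UMIs Mif was thus higher in Cd74-rich spots of 4 of 4 sections, with a log2 fold change of 0.07 by library totals (adjusted p = 0.151 in edgeR), but with TMM scaling it was -0.0035 (adjusted p = 0.971).

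Ranked by 12 lipid-associated macrophage genes together, Mif stood at 271, 296, 226 and 239.7 CPM in top spots, against 257, 249, 219.6 and 230.5 CPM in bottom spots (log2 fold change 0.04, adjusted p = 0.731 in edgeR). The ratio was 1.19 in MASH-2 and 1.03 to 1.05 in the other sections. Ranked by haemoglobin genes, it was 1.02, 0.961, 1.02 and 0.945 (log2 fold change -0.02, adjusted p = 0.914 in edgeR).

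Lipid-associated macrophage genes, which mark macrophages around lipid-laden hepatocytes, had the highest median among the macrophage lists. Of 11 tested members 2 passed as higher in Mif-rich spots (Lgals3 and Gpnmb), beside 7 of all 12023 tested genes. All 11 had a positive log2 fold change, with a median of 0.26 against 0.00 over all tested genes. Their summed level was 214, 507, 170.4 and 123 CPM in Mif-rich spots of MASH-1, MASH-2, MAFL-1 and MAFL-2, against 199, 333, 164 and 118 CPM in Mif-poor spots. The step in MASH-2 was by far the largest, and in the MAFL sections only 6 of 11 members were higher in each. Over all 12023 tested genes, 5987, 6171, 6267 and 5848 were higher in the Mif-rich class of MASH-1, MASH-2, MAFL-1 and MAFL-2. These are the base for such counts in the lists below. The integrin Itgax (log2 fold change 0.67, adjusted p = 0.0894 in edgeR) and Mmp12 (0.60, adjusted p = 0.151) did not pass.

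Antigen presentation, macrophage and Kupffer cell genes had no call. None of 7 MHC class II genes passed in edgeR (3 with an unadjusted p under 0.05, median 0.12), with 7 and 5 of 7 higher in value in the Mif-rich class of MASH-1 and MASH-2 and 2 and 3 of 7 in that of MAFL-1 and MAFL-2. H2-Ab1, a class II beta chain, stood at 155, 235, 69.4 and 60.9 CPM in Mif-rich spots, against 146, 204, 68.2 and 56.8 CPM in Mif-poor spots. Of 14 monocyte and macrophage genes none passed (median 0.10, 12 positive). The Mif-rich value was the larger for 12, 11, 5 and 11 of 14 in MASH-1, MASH-2, MAFL-1 and MAFL-2. Resident Kupffer cell genes had a median of -0.05, with 11 of 14 negative and none past the test. The Kupffer lectin Clec4f stood at 139.6, 119, 91.5 and 123 CPM in Mif-rich spots, against 142, 149, 96.7 and 123 CPM in Mif-poor spots (log2 fold change -0.11, adjusted p = 0.716 in edgeR).

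Genes of the fibrous and biliary compartment had positive medians without passing. Of 16 stellate cell and fibroblast genes none passed (5 with an unadjusted p under 0.05, median 0.09), with 13 of 16 higher in the Mif-rich class of each MASH section and 5 of 16 in each MAFL section. Among all 12023 tested genes, 5987 and 6171 were higher in MASH-1 and MASH-2, and 6267 and 5848 in MAFL-1 and MAFL-2. Col3a1, a fibrillar collagen, stood at 34.8, 75.5, 15.4 and 10.9 CPM in Mif-rich spots, against 28.0, 57.0, 17.05 and 11.8 CPM in Mif-poor spots (log2 fold change 0.27, adjusted p = 0.166 in edgeR). All 9 bile duct genes had positive fitted values (median 0.10), none past the test. By section, 8, 8, 4 and 5 of 9 were higher in the Mif-rich class of MASH-1, MASH-2, MAFL-1 and MAFL-2. The epithelial adhesion molecule Epcam stood at 3.13, 9.85, 2.77 and 2.73 CPM in Mif-rich spots, against 2.52, 6.06, 2.76 and 2.08 CPM in Mif-poor spots (log2 fold change 0.47, adjusted p = 0.326 in edgeR).

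Red blood cell genes had smaller sums in the Mif-rich class of every section. Their summed level was 3881, 1093, 2732 and 1289 CPM in Mif-rich spots of MASH-1, MASH-2, MAFL-1 and MAFL-2, against 4873, 1641, 3118 and 2192 CPM in Mif-poor spots. All 5 tested members had negative values in 4 of 4 sections (median -0.46), and none passed in edgeR, with 4 at an unadjusted p under 0.05. Hba-a1, an alpha globin, had a log2 fold change of -0.52 (adjusted p = 0.656), and with the top and bottom 20% of spots it passed at -0.62 (adjusted p = 6.97e-25). When spots were ranked on 1 part of the UMIs and tested in the other, Hba-a1 stood at -0.11 (adjusted p = 0.964 in edgeR) and the second alpha globin Hba-a2 at -0.091 (adjusted p = 0.961), against -0.46 for Hba-a2 with all UMIs. The part of blood content in the other differences was not tested.

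**Figure D4:**
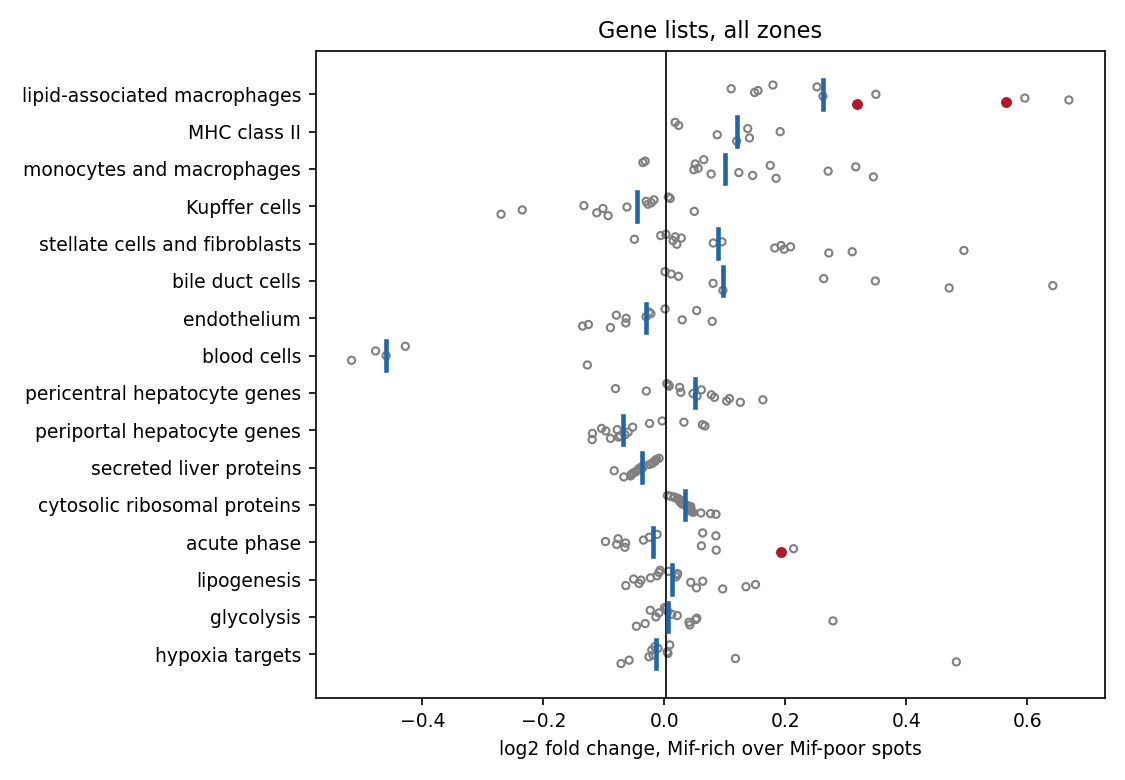
Log2 fold change of Mif-rich over Mif-poor spots for the tested members of 16 gene lists, all zones. Open points are members that did not pass, filled points the members that passed in edgeR, blue bars the list medians, and the vertical line the median of all tested genes. The lipid-associated macrophage bar lies furthest to the right and the blood cell bar furthest to the left.

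Genes of secreted liver proteins and of the ribosome differed by small amounts, without a call. Of 19 secreted liver proteins none passed in edgeR and all 19 had negative fitted values (median -0.04, 6 with an unadjusted p under 0.05). By section, 2, 0, 9 and 5 of 19 were higher in the Mif-rich class of MASH-1, MASH-2, MAFL-1 and MAFL-2. Alb stood at 52283, 49253, 48289.5 and 50626 CPM in Mif-rich spots, against 53499, 55716, 48506 and 52427 CPM in Mif-poor spots (log2 fold change -0.07, adjusted p = 0.513 in edgeR). All 30 cytosolic ribosomal protein genes had positive values (median 0.03), none past the test. Members of such a list share their scaling, so their common sign is not a count of independent genes, and scaling by library totals moves the median of all genes by 0.02.

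Zone genes had no call. Of 16 periportal hepatocyte genes none passed and 13 were negative (median -0.07), and of 16 pericentral ones none passed and 14 were positive (median 0.05). The glutaminase Gls2, a periportal gene, stood at 141, 142, 177 and 211 CPM in Mif-rich spots, against 142, 168, 185 and 236 CPM in Mif-poor spots (log2 fold change -0.12, adjusted p = 0.166 in edgeR). Gulo, the last enzyme of vitamin C synthesis, stood at 233, 134, 119 and 194 CPM in Mif-rich spots, against 216, 119, 115 and 174 CPM in Mif-poor spots (log2 fold change 0.13, adjusted p = 0.0894 in edgeR). Both differences had the same sign in 4 of 4 sections. The lists as a whole were less even, since the Mif-rich value was the larger for 6, 4, 6 and 2 of 16 periportal genes and for 11, 8, 10 and 14 of 16 pericentral genes in MASH-1, MASH-2, MAFL-1 and MAFL-2. Relative to total UMIs, the summed periportal level was 8934.5, 12437, 8138 and 9433 CPM in Mif-rich spots. It was 8901, 12089, 8211 and 9704 CPM in Mif-poor spots. On this scale the sum was the larger in the Mif-rich class of both MASH sections and the smaller in that of both MAFL sections. The counts of genes use TMM-scaled values, and the direction of the sums may differ on that scale.

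Lipid and energy genes showed little. None of 18 lipogenesis genes passed (median 0.01), none of 15 lipid droplet genes (0.03) and none of 18 fatty acid oxidation genes (0.00). Glycolysis (0 of 15, median 0.01), nuclear respiratory chain subunits (0 of 30, median -0.01) and hypoxia targets (0 of 12, median -0.01) gave no call either. Pgk1, a glycolytic kinase that hypoxia induces, had a log2 fold change of -0.05 (adjusted p = 0.802 in edgeR), and Vegfa, the vascular growth factor, had -0.07 (adjusted p = 0.802). In the acute phase list 1 of 14 genes passed (Orm2), and in the xenobiotic list 1 of 18 (Gsta1), beside 7 of all 12023 tested genes. T and NK cell genes (0 of 9, median 0.17) and endothelial genes (0 of 13, median -0.03) did not pass.

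Matching the classes for zone gave 21 calls, 12 higher and 9 lower in Mif-rich spots, or 0.209% of 10052 tested genes. The sums of the 3 zones of a section entered this fit separately, so its error came in part from spots of the same section. DESeq2 called 0. Orm2 was again higher (edgeR log2 fold change 0.19 with SE 0.04, adjusted p = 0.0114), as were the histone chaperone Nap1l1 (0.15, adjusted p = 0.0471), the matrix proteoglycan Bgn (0.12, adjusted p = 0.0464) and the epithelial keratin Krt8 (0.09, adjusted p = 0.0310). Outside the naming rule, Gsta1 (0.68) and Ubd, which had also passed over all zones, were again higher. Bgn stood at 129.6, 211, 119 and 105 CPM over all zones in Mif-rich spots, against 122, 178, 115 and 96.3 CPM in Mif-poor spots.

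The genes that were lower in this fit by the naming rule were the metal transporter Slc39a14 (log2 fold change -0.13, adjusted p = 0.0138 in edgeR), the lipid transporter Mfsd2a (-0.11, adjusted p = 0.0149), the lysine-degrading Aass (-0.10, adjusted p = 0.0287), the glucocorticoid-activating Hsd11b1 (-0.10, adjusted p = 0.0138) and Gls2 (-0.10, adjusted p = 0.0488). Slc39a14 stood at 96.2, 97.7, 152 and 134 CPM over all zones in Mif-rich spots, against 106, 113, 161 and 142 CPM in Mif-poor spots. In sums over all zones, these 5 genes and the 4 higher ones of the rule (Orm2, Nap1l1, Bgn and Krt8) kept 1 direction in 4 of 4 sections, as the naming rule asks. Within single zones this was not always so, as pericentral Orm2 was higher in Mif-rich spots of 3 sections and lower in 1. The fitted log2 fold changes of these genes named by the rule were at most 0.19 in size. Calls outside the rule included larger ones, such as Gsta1 (0.68), Adamtsl2 (0.31, adjusted p = 0.0147 in edgeR) and Lcn2 (0.22, adjusted p = 0.0351). In sums over all zones, each of these 3 was higher in the Mif-rich class of only 2 sections. Cd74 did not pass (log2 fold change 0.11, adjusted p = 0.642), nor did Thrsp (0.05, adjusted p = 0.454), Ddt (-0.03, adjusted p = 0.749) or Cd44 (0.04, adjusted p = 0.957). Without MASH-1 the count was 5, with 1 of the 21 shared, and without MASH-2 it was 6, with 2 shared. Thinning to 5000 UMIs turned the sign of Orm2 (-0.094), Mfsd2a (0.0073) and Gls2 (0.040).

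Within the periportal zone no gene passed in edgeR (0% of 10750, with 605 at an unadjusted p under 0.05). DESeq2 called 2 there, the alpha globins Hba-a1 and Hba-a2, both lower. Hba-a1 stood at 782, 168, 400.0 and 457 CPM in Mif-rich periportal spots of MASH-1, MASH-2, MAFL-1 and MAFL-2, against 1123, 369, 678 and 968 CPM in Mif-poor ones. Cd74 there stood at 267, 464, 86.3 and 90.1 CPM in Mif-rich spots, against 255, 337, 77.5 and 92.9 CPM in Mif-poor spots (edgeR log2 fold change 0.20 with SE 0.07, adjusted p = 0.763). Without MASH-1 the count was 6.

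Within the middle zone 9 genes passed, or 0.0906% of 9931. The glutamate transporter Slc1a2, a pericentral gene, stood at 84.0, 36.7, 37.9 and 61.04 CPM in Mif-rich spots of MASH-1, MASH-2, MAFL-1 and MAFL-2, against 63.0, 36.5, 27.2 and 54.1 CPM in Mif-poor spots (edgeR log2 fold change 0.30 with SE 0.07, adjusted p = 0.0324). Gulo was higher too (0.17, adjusted p = 0.0394), but stood at -0.036 when spots were ranked on 1 part of the UMIs and tested in the other. The periportal serine dehydratase Sds stood at 123, 177, 181 and 236 CPM in Mif-rich spots, against 151, 202, 192 and 254 CPM in Mif-poor spots (edgeR log2 fold change -0.17 with SE 0.04, adjusted p = 0.0198). Hsd11b1 (-0.11, adjusted p = 0.00998), Alb (-0.07, adjusted p = 0.000122) and the protease inhibitor Serpina1c (-0.06, adjusted p = 0.0425) were also lower. The 3 calls outside the rule were the urinary protein Mup17 (0.15), whose family has near-identical copies that share reads, the antiviral Rsad2 (-0.69) and the immunoglobulin segment Ighg2c (-1.05). Ighg2c held 28, 63, 4 and 20 UMIs in the middle zone of the Mif-rich class in MASH-1, MASH-2, MAFL-1 and MAFL-2, against 72, 211, 1 and 20 UMIs in the Mif-poor class, so it was the smaller in the MASH sections only. Its log2 fold change was 1.94 in the periportal zone (adjusted p = 0.810 in edgeR), with 650 UMIs in Mif-rich and 117 UMIs in Mif-poor spots of MASH-2, and 0.47 over all zones (adjusted p = 0.912). DESeq2 called 0 here, and the count was 2 without MASH-1 and 4 without MASH-2.

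Within the pericentral zone 1 gene passed, or 0.00999% of 10011. The tubulin Tubb2a stood at 25.3, 65.5, 22.7 and 11.9 CPM in Mif-rich spots, against 19.4, 41.3, 19.8 and 9.03 CPM in Mif-poor spots (edgeR log2 fold change 0.47 with SE 0.10, adjusted p = 0.0260, 4 of 4 sections). Its call was lost when any 1 section was left out, and DESeq2 called 0. The difference of the class effect between periportal and pericentral spots gave no call (0% of 10121 in edgeR, 398 at an unadjusted p under 0.05, and 0 in DESeq2).

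The class effect differed between MASH and MAFL for 2 genes, or 0.0166% of 12023. Spp1, which encodes osteopontin and is made by bile duct cells and macrophages, stood at 91.3 and 306 CPM in Mif-rich spots of MASH-1 and MASH-2, against 73.4 and 217 CPM in their Mif-poor spots. In MAFL-1 and MAFL-2 it stood at 79.7 and 61.5 CPM in Mif-rich spots, against 84.2 and 63.1 CPM in Mif-poor spots. Over all zones, Spp1 was thus higher in the Mif-rich class of both MASH sections and lower in that of both MAFL sections (difference of log2 fold changes, MASH minus MAFL, 0.48 in edgeR with SE 0.07, adjusted p = 0.000542). Within the periportal zone it was higher in Mif-rich spots of 4 of 4 sections. The log2 ratios there were 0.26, 0.73, 0.04 and 0.03 in MASH-1, MASH-2, MAFL-1 and MAFL-2. The interaction was not matched for zone.

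Cib3, a calcium- and integrin-binding family member, stood at 32.4 and 36.6 CPM in Mif-rich spots of MASH-1 and MASH-2, against 24.4 and 27.9 CPM in their Mif-poor spots. In MAFL-1 and MAFL-2 it stood at 27.4 and 41.1 CPM in Mif-rich spots, against 29.6 and 48.4 CPM in Mif-poor spots (difference 0.59 in edgeR with SE 0.10, adjusted p = 0.00439). Without MASH-2 neither gene passed (Spp1 0.37, adjusted p = 0.147), the count being 1. The count was 194 without MASH-1 and 6 without MAFL-1, each with both genes, and without MAFL-2 Cib3 no longer passed (0.52). Neither passed with spots thinned to 5000 UMIs, where the difference was 0.088 for Spp1 and -0.18 for Cib3. Nor did either pass with spots ranked on 1 part of the UMIs and tested in the other, where it was 0.35 for Spp1 (adjusted p = 0.927 in edgeR) and 0.39 for Cib3 (adjusted p = 0.883). DESeq2 called 0. The class effects of Cd74 (difference 0.12, adjusted p = 0.842), Thrsp (0.10, adjusted p = 0.866) and Ddt (-0.04, adjusted p = 0.928) were not shown to differ between the groups.

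**Figure D5:**
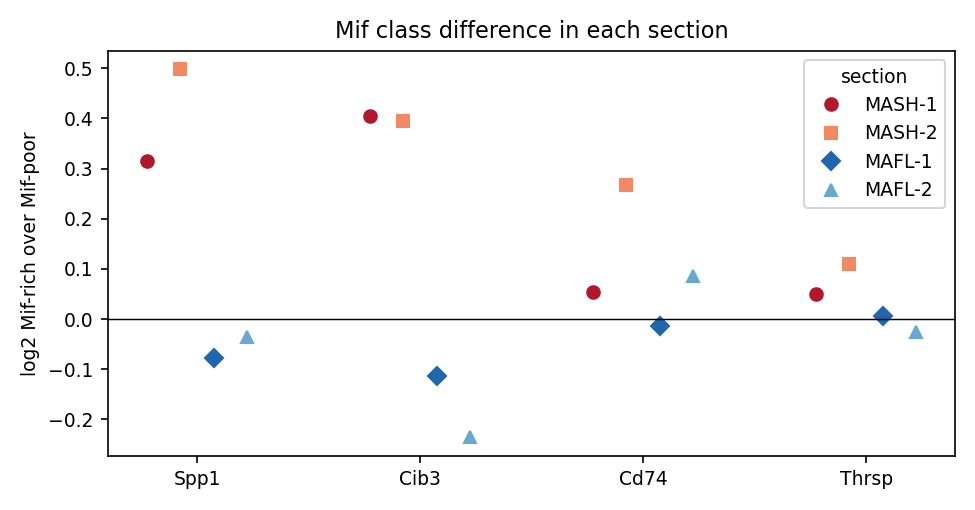
Log2 ratio of Mif-rich over Mif-poor spots of all zones in each section for Spp1, Cib3, Cd74 and Thrsp. MASH sections lie to the left of MAFL sections, with a line at 0. Spp1 and Cib3 lie above 0 in both MASH sections and below 0 in both MAFL sections, and Cd74 and Thrsp lie closer to 0 or overlap between the groups.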

How the data were processed

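The authors deposited filtered matrices of counts, whole UMIs for each gene and spot. Per the file headers they came from Space Ranger 1.2.2, and the submitters' processing notes name mm10. The annotation is not given in the sources used here. The files hold 31253 features. Spots under 500 UMIs were left out, and spot positions were not used here. The members, gene lists and tests were chosen with earlier results of these data known.

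Sums of counts for each class and section (and zone, where stated) were tested in R 4.3.3 with edgeR 4.0.16, using TMM factors, filterByExpr and the robust quasi-likelihood test. A Benjamini-Hochberg adjusted p under 0.05 was a call. Mif was left out of every test, and Cyp2f2 and Cyp2e1 of those by zone. Printed CPM of tested genes are TMM-scaled, as are folds. CPM of Mif and of summed lists are relative to the total UMIs counted. Alternatives used DESeq2 1.42.0, limma 3.58.1 and other rankings. Rankings, splitting and thinning used Python 3.11.15 with numpy 2.4.6 and pandas 2.3.3. Fits were tested on simulated data.

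The naming rule took up to 10 genes at each end of the log2 fold changes over all zones, and up to 5 at each end elsewhere. They had to pass the test, average 20 CPM or more and keep 1 direction in all sections. For the zone-matched fit, level and direction were taken from the sums over all zones. Predicted genes and the Mup, globin, mitochondrial, ribosomal and sex-linked genes were exempt. The MIF family, receptors and Thrsp were named throughout, with up to 4 members of smallest p of each list described. Other genes were named after their values were seen.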

Additional observations from a re-analysis of the deposited data

Results flagged for a closer look

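For 2 genes the difference between Mif-rich and Mif-poor spots itself differed between MASH and MAFL sections in edgeR's interaction test. The difference of log2 fold changes, MASH minus MAFL, was 0.48 for Spp1 (adjusted p = 0.000542) and 0.59 for Cib3 (adjusted p = 0.00439). Neither passed in DESeq2, without MASH-2, with spots ranked on 1 part of the UMIs and tested in the other, or with spots thinned to 5000 UMIs, where Spp1 stood at 0.088 and Cib3 at -0.18. Over all zones, each gene was higher in the Mif-rich class of 2 of 2 MASH sections and lower in that of 2 of 2 MAFL sections. Within the periportal zone Spp1 was higher in the Mif-rich class of 4 of 4 sections.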

How the results depend on the processing

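The counts of called genes below are for all zones (7), zone-matched spots (21), the periportal (0), middle (9) and pericentral (1) zones and the MASH minus MAFL (2) and periportal minus pericentral (0) differences. DESeq2 gave 0, 0, 2, 0, 0, 0 and 0. No filter on low counts gave 61, 64, 32, 11, 6, 17 and 1. Ranking on 1 part of the UMIs and testing the other gave 3, 8, 1, 4, 3, 1 and 0. Leaving out 1 section in turn gave 7 to 45, 5 to 27, 0 to 6, 2 to 14, 0 to 4, 1 to 194 and 0 to 1, where a lone section of a group was assumed to vary like the others. Spots thinned to 5000 UMIs gave 1 over all zones, 0 matched and 0 for MASH minus MAFL. Over all zones, library totals gave 11, the top and bottom 20% of spots 18, spots of at least 5000 UMIs 3 and the fit with no replicate block, meaning no section block, 0. With 10 bins of total UMIs the MASH minus MAFL count was 4, with 10 zone classes the matched count was 135, and ranking anew within zones gave 0 in the pericentral zone. Allowing the class effect to differ by replicate number (a replicate block) gave 13 for MASH minus MAFL. The labels give no pairing of same-numbered sections, so the numbers were not taken as pairs. Such sections did not deviate together (r = -0.03 over 4162 genes). The class differences were small, so this check cannot exclude pairing. Thinning turned the sign of Cd44 (-0.18), Orm2 (-0.10), Gpnmb (-0.10), Col1a1 (-0.041), Alas2 (0.074), Slc40a1 (0.0030) and Gls2 (0.018) over all zones, of Adamtsl2 (-0.073), Lcn2 (-0.080), Orm2 (-0.094), Mfsd2a (0.0073) and Gls2 (0.040) in matched spots, and of Cib3 (-0.18) in the MASH minus MAFL difference. Ranking on 1 part of the UMIs turned Cd44 (-0.065) and, in the middle zone, Gulo (-0.036), and leaving out MASH-2 turned Cd44 (-0.020, with 0.066 the highest value when 1 section was left out). Mif in spots ranked by Cd74 was 0.068 with library totals, and 0.0085, 0.0072, 0.0056 and -0.021 without MASH-1, MASH-2, MAFL-1 and MAFL-2. With another seed the log2 ratio of Mif in UMIs left out of the ranking was 0.19 in MASH-2, 0.10 in MAFL-1 and 0.15 in MAFL-2. The causes of these changes were not tested. Thinned sums and the MAFL sums of Slpi, Gsta1 and Gpnmb hold few UMIs, which limits what they show.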
